A study of Mus musculus with 12 samples.

Results

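The 8 genes described here encode the transporters that mark neurons by the transmitter they release or recapture: glutamate, GABA, glycine or acetylcholine. They were taken by symbol from the table of read counts, and all 8 were found among its 43629 gene IDs and passed the filter on low counts. Vesicular transporters fill synaptic vesicles with transmitter, using the proton gradient that a vesicular pump builds, while plasma membrane transporters take transmitter or its precursor back into the cell. Because most of these vesicular transporters are made by neurons of a given transmitter, their RNAs are used to tell glutamatergic, inhibitory and cholinergic neurons apart. In the brain, VGLUT1 predominates in cortex and hippocampus, VGLUT2 in thalamus, hypothalamus and brainstem, and the neuronal glycine transporter GlyT2 in brainstem, cerebellum and spinal cord.

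Poly(A) RNA was sequenced from pulverised frozen mouse forebrain in 12 libraries, 3 for each of 4 groups of 3-month-old animals. As newborns, the mice of 2 groups, females and males, had been injected into the cerebral ventricles with rAAV, an adeno-associated virus used to deliver genes, that carried a collagen domain construct, and those of the other 2 groups with PBS. Where the construct derives from is read from the series title, which names C1qTNF3, a member of the secreted C1q/TNF proteins. Strain, promoter and dose of the vector are not given in the sources used here. An empty rAAV was not among the groups, and the vector and the construct cannot be told apart. Whether each numbered sample was its own mouse is not stated, and the p-values reflect no more than the spread among libraries.

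Libraries held 39272127 to 52323985 counted reads. C1qtnf3 had 1071 or more reads in 6 libraries and at most 28 in the other 6, and this went against the treatment label in 4 libraries: collagen domain female 1 and female 3 were low, and PBS female 2 and PBS male 1 were high. Xist and Ddx3y went against the sex label in 4 libraries, 3 of them among those above, so 5 of 12 went against a label. Groups below are as labelled.

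The tissue pieces also differed. The 16 Hox genes listed as marks of hindbrain position, none of which is a member, summed to 8.57 to 26.2 CPM (read counts relative to library size, scaled by the TMM method) in 6 libraries, with all 16 detected in each, and to 0.0244 to 0.326 CPM in the other 6, where 8 to 15 of the 16 had no read. The 6 with Hox reads were collagen domain female 2, collagen domain male 2, PBS female 2, PBS female 3, PBS male 1 and PBS male 3. A list of 10 cerebellar genes summed to 392 to 891 CPM in 5 of these and to 39.1 CPM in PBS male 1, against 35.6 to 39.3 CPM in the 6 libraries without Hox reads. Hox genes are hindbrain and spinal cord genes, while the label of all 12 is forebrain, and results below are therefore also given for these 2 sets, which were defined from the data and are not groups of the study.

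Ranked by RNA level per length, the glutamate transporter of the cortex stood first. Slc17a7 (VGLUT1) averaged 138 ± 12.4 CPM per kilobase of exon (SD, n = 12 libraries), followed by Slc32a1, the vesicular GABA and glycine transporter VGAT, at 28.8 ± 2.9 CPM per kilobase. Slc17a6 (VGLUT2) averaged 18.0 ± 4.05 CPM per kilobase. The ranges over libraries of these 3 did not overlap each other or those below them. The order of the last 2 rests on exon length: in CPM Slc17a6 averaged 97.3 and Slc32a1 80.6, and their ranges overlapped. Per kilobase, Slc6a9, the glycine transporter GlyT1 of glia and some neurons, came next at 5.02 ± 1.13 CPM per kilobase, then Slc6a5 (GlyT2) at 2.65 ± 3.15 and Slc5a7, the high-affinity choline transporter, at 2.17 ± 0.521. Slc6a5 ranged from 0.0102 to 7.93 CPM per kilobase, across the ranges of the neighbours above and below it, so its place in the order differed from library to library. Slc17a8 (VGLUT3) at 1.12 ± 0.166 and Slc18a3, the vesicular acetylcholine transporter VAChT, at 0.909 ± 0.345 CPM per kilobase were lowest, and their ranges overlapped.

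**Figure D1:**
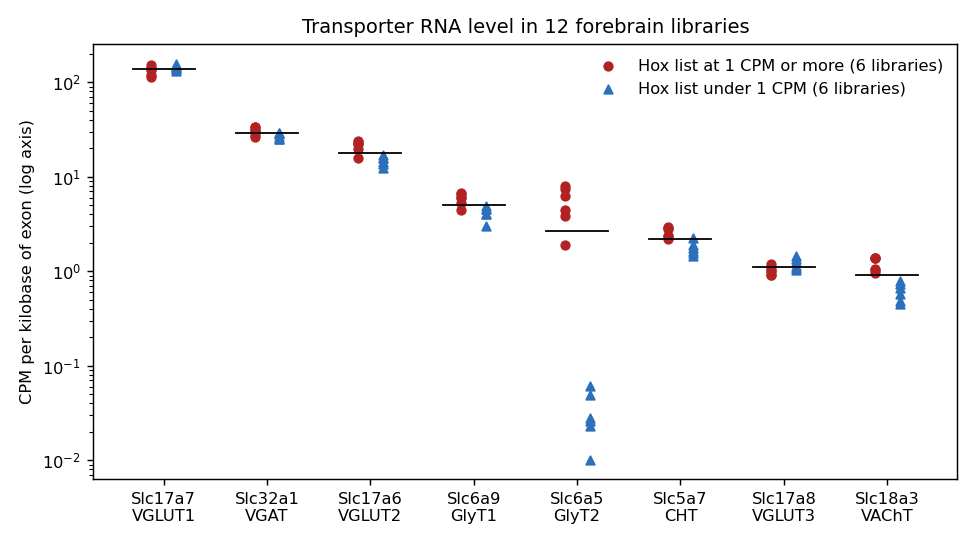
RNA level of the 8 transporter genes in CPM per kilobase of exon on a log axis, in order of their mean (bar) over 12 libraries; red circles are the 6 libraries with the Hox list at 1 CPM or more, blue triangles the other 6. Slc17a7 stands at 115 to 157 in all libraries, while Slc6a5 splits into 2 sets, from 0.0102 to 7.93.

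The glutamate transporters come from 3 related genes. Slc17a7 (ENSMUSG00000070570, chromosome 7), the vesicular transporter of cortical, hippocampal and cerebellar granule neurons, was among the members that varied least, with 619 to 845 CPM over all libraries. It stood at 795, 720 and 754 CPM in collagen domain females 1, 2 and 3, against 752, 828 and 768 CPM in the PBS females. Males had 845, 643 and 712 CPM with collagen domain, against 747, 777 and 619 CPM with PBS. The groups overlapped in both sexes, and collagen domain male 2 and PBS male 3, both with Hox reads, were lowest.

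Slc17a6 (ENSMUSG00000030500, chromosome 7), the vesicular transporter of subcortical glutamatergic neurons, followed the tissue piece more than the label. Its values were 77.0, 121 and 84.7 CPM in the collagen domain females, against 66.8, 106 and 128 CPM in the PBS females. In males they were 73.9, 126 and 86.1 CPM with collagen domain, against 85.2, 92.6 and 120 CPM with PBS. The 5 libraries with a cerebellar sum of 392 CPM or more held the 5 highest values. PBS male 1, which had Hox reads and a cerebellar sum of 39.1 CPM, lay among the 6 without. Over the tissue split the means were 114 ± 16.2 CPM in the 6 libraries with Hox reads and 80.2 ± 9.36 CPM in the 6 without.

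The 2 genes are shown with the bases before the RefSeq start of transcription (GRCm38.p6, plus strand), because they code for close relatives on the same chromosome whose levels ran apart between pieces.
Slc17a7, chr7:45163671-45163920: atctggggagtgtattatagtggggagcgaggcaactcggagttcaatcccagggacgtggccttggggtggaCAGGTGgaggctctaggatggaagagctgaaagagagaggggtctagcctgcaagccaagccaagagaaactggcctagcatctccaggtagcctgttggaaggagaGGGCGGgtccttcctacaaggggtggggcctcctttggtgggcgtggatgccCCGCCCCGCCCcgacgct
Slc17a6, chr7:51621580-51621829: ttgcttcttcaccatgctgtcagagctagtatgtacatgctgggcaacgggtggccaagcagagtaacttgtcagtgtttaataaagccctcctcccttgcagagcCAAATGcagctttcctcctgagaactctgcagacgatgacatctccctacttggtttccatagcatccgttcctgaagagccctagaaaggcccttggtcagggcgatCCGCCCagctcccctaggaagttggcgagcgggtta
Capitals mark the motifs searched on both strands of 250 bases, the E-box CANNTG and the GC box GGGCGG, which overlap each other in neither promoter, although 2 GC boxes of Slc17a7 share a base. The TATA box TATAAA, the CCAAT box and the cyclic AMP response element TGACGTCA were searched as well and were in neither. An E-box was in 8 of 8 member promoters and in 66.2% of all 32851 RefSeq promoter windows of that length, and a GC box in 4 of 8 and in 32.7% of all. These last 3 motifs were in 1, 0 and 0 of the 8 members, and in 12.4, 33.8 and 1.55% of all windows. GC content was 61.2% for Slc17a7 and 53.2% for Slc17a6, with a median of 52.4% over all windows.

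The balance between the 2 transporters moved with these values. The ratio of Slc17a6 to Slc17a7 in CPM per kilobase ranged from 0.114 to 0.196 in the 6 libraries with Hox reads, against 0.0874 to 0.121 in the 6 without. By label the median ratio was 0.117 with collagen domain and 0.123 with PBS, so VGLUT1 RNA exceeded VGLUT2 RNA per length in all 12 libraries whichever way they were grouped.

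Slc17a8 (ENSMUSG00000019935, chromosome 10), VGLUT3, is found in scattered neurons that also release acetylcholine, serotonin or GABA. It was the member whose labelled groups stood apart. Collagen domain females 1, 2 and 3 had 5.98, 5.70 and 6.83 CPM, against 4.88, 4.35 and 4.76 CPM in the PBS females. Collagen domain males had 5.37, 5.13 and 6.36 CPM, against 4.78, 5.11 and 4.32 CPM in the PBS males. Every library labelled collagen domain lay above every one labelled PBS, by as little as 5.13 against 5.11 CPM between the closest pair, on 165 to 294 reads a library. Such a gap without overlap, with collagen domain higher, was found for 6 of 19145 genes tested (0.0313%), and Slc17a8 was the member among them. With collagen domain lower it was found for 9 genes (0.047%) and for 0 of 8 members. The edgeR quasi-likelihood fit put its log2 fold change at 0.33 (SE 0.0852), with an adjusted p = 1, so it did not pass.

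The direction of Slc17a8 was the same in each subset examined. Because the labelled groups did not overlap, this was largely fixed in advance and is no further evidence. The log2 fold change was 0.41 (SE 0.122) in females and 0.25 (SE 0.122) in males, both at an edgeR adjusted p = 1, and the 2 differed by -0.16 (SE 0.172, adjusted p = 1 for the interaction). Within the 6 libraries with Hox reads it was 0.26 (SE 0.123, adjusted p = 0.643), and within the 6 without it was 0.29 (SE 0.133, adjusted p = 0.971). Without the 4 libraries whose C1qtnf3 reads went against the treatment label it was 0.25 (SE 0.119, adjusted p = 0.819), and without the 5 against either label 0.18 (SE 0.121, adjusted p = 0.683). In both of these edgeR fits 0 of 8 members had an unadjusted p under 0.05. The 4 libraries against their treatment label had the Slc17a8 level of their label, which the lack of overlap also fixed in advance. Collagen domain females 1 and 3, with few C1qtnf3 reads, were at 5.98 and 6.83 CPM. PBS female 2 and PBS male 1, with many, were at 4.35 and 4.78 CPM. Split by C1qtnf3 reads instead of label, the libraries overlapped. Slc17a8 ranged from 4.35 to 6.36 CPM in the 6 with many and from 4.32 to 6.83 CPM in the 6 with few. Slc17a8 averaged 4.84 ± 0.517 CPM in the 6 libraries with Hox reads and 5.76 ± 0.76 CPM in the 6 without. The serotonin neuron genes of the lists overlapped between labels: Tph2, the enzyme of brain serotonin synthesis, averaged 3.83 ± 4.49 CPM with collagen domain and 2.45 ± 2.00 CPM with PBS. Slc6a4, the serotonin transporter, averaged 1.84 ± 2.78 CPM with collagen domain and 0.812 ± 0.855 CPM with PBS (log2 fold change 1.26, SE 1.21, edgeR adjusted p = 1). Fev, a transcription factor of serotonin neurons, averaged 0.0894 ± 0.121 CPM with collagen domain and 0.0756 ± 0.0539 CPM with PBS. Of the hypothalamic genes listed, 0 of 13 tested passed, as did 0 of all 19145 genes (0%). Of these 13 of 13 had a log2 fold change above 0, against 50.1% of all genes tested. With collagen domain the 14 hypothalamic genes listed summed to 59.2 to 151 CPM, against 43.8 to 80.7 CPM with PBS. The 6 choroid plexus genes summed to 356 to 944 CPM with collagen domain, against 354 to 724 CPM with PBS. Of the striatal genes 9 of 10 were above 0, of the acetylcholine genes 9 of 14 tested and of the GABAergic interneuron genes 3 of 12. The 10 striatal genes summed to 705 to 1071 CPM with collagen domain, against 667 to 1034 CPM with PBS. The part of these and of cell numbers in the Slc17a8 difference was not tested. In such bulk RNA more cells of a type and more RNA per cell cannot be told apart.

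The bases before the RefSeq start of Slc17a8 are shown for this member (GRCm38.p6, minus strand, ending 5 bases before the start, with an annotated exon from the next base on).
Slc17a8, chr10:89621254-89621499: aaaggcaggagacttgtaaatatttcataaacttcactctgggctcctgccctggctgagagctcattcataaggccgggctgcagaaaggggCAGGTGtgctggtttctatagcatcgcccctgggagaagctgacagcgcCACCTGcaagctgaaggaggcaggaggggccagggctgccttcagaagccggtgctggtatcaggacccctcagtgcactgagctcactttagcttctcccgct
Capitals mark its 2 E-boxes, and the other motifs searched were not in this window. Its GC content over 250 bases was 57.2%.

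**Figure D2:**
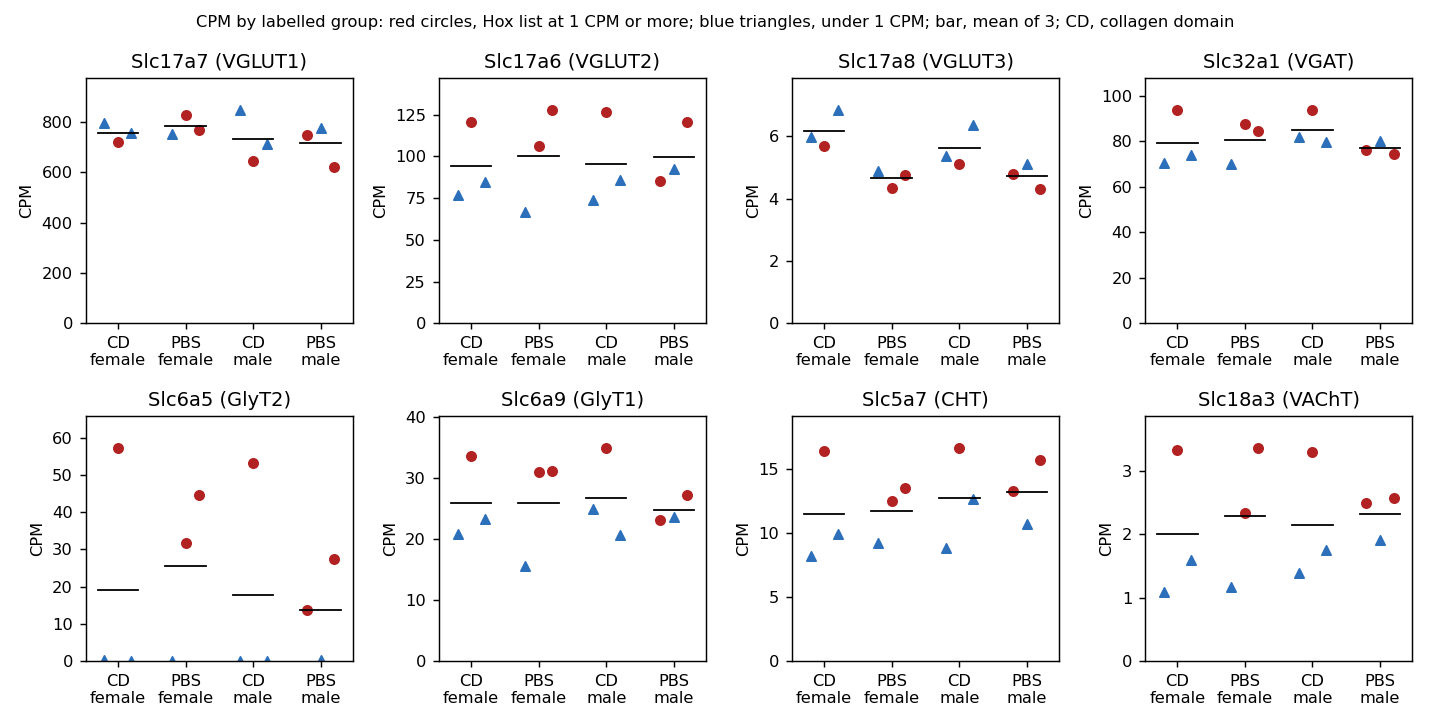
CPM of each transporter gene in every library by labelled group (CD, collagen domain; 3 libraries a group, bar at the mean); red circles are libraries with the Hox list at 1 CPM or more. In the Slc17a8 panel the 6 collagen domain libraries (5.13 to 6.83 CPM) lie above the 6 PBS libraries (4.32 to 5.11 CPM), and in the Slc6a5 and Slc18a3 panels the red circles lie above the blue triangles.

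Slc32a1 (ENSMUSG00000037771, chromosome 2) loads GABA and glycine into vesicles of all inhibitory neurons and was as steady as Slc17a7. The collagen domain females had 70.4, 93.7 and 73.9 CPM, against 70.0, 87.5 and 84.7 CPM in the PBS females. The collagen domain males had 81.9, 93.7 and 79.8 CPM, against 76.4, 80.3 and 74.4 CPM in the PBS males. The groups overlapped in both sexes, and the highest values, in collagen domain female 2 and collagen domain male 2, were again in libraries with Hox reads. The ratio of Slc17a7 to Slc32a1 in CPM per kilobase, a reading of excitatory against inhibitory vesicular transporter RNA, ranged from 3.56 to 5.86 with collagen domain and from 4.32 to 5.57 with PBS. It ranged from 3.56 to 5.07 in the 6 libraries with Hox reads and from 4.63 to 5.86 in the 6 without. An antisense gene, Gm14205, shares 697 exon bases with Slc32a1, and the kit does not keep strand. Gm14205 was counted at a mean of 0.0234 CPM. How reads over both genes were counted is not given, so their part in the Slc32a1 values is not known.

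Slc6a5 (ENSMUSG00000039728, chromosome 7), the plasma membrane transporter GlyT2 that supplies glycine to glycinergic terminals, differed most between libraries. It held 57.1 CPM in collagen domain female 2 and 53.2 CPM in collagen domain male 2, against 31.8, 44.6, 13.8 and 27.5 CPM in PBS female 2, PBS female 3, PBS male 1 and PBS male 3. In the other collagen domain libraries it held 0.442, 0.186, 0.0733 and 0.20 CPM, against 0.168 and 0.35 CPM in PBS female 1 and PBS male 2. The high set is the 6 libraries with Hox reads, with 622 to 2646 reads of Slc6a5, and the low set the 6 without, with 3 to 19 reads. The means were 38.0 ± 16.6 and 0.237 ± 0.135 CPM (SD, n = 6 each). Its log2 CPM spanned 8.92 between libraries, against 0.42 to 1.58 for the other 7 members.

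In PBS male 1 the cerebellar list, at 39.1 CPM, was within the range of the libraries without Hox reads, and Gabra6, a GABA receptor subunit of cerebellar granule cells, was at 0.42 CPM. Of the 10 cerebellar genes 7, Gabra6 among them, were not above all libraries without Hox reads, and 3 were: En2 at 1.66 CPM, against at most 1.28 CPM, Fat2 at 0.619 CPM, against at most 0.566 CPM, and Barhl1 at 0.332 CPM, against at most 0.267 CPM. Slc6a5 in PBS male 1 was at 13.8 CPM and the Hox list at 10.1 CPM. A list of 10 genes of brainstem neuron groups was also raised in the 6 libraries with Hox reads, at 8.29 to 26.6 CPM summed, against 1.91 to 3.27 CPM in the 6 without, and each of the 10 genes was higher in all 6. The 5 genes whose pattern lay nearest to Slc6a5 over the 12 libraries, by the root mean square difference of centred log2 CPM, were Hoxa5 (0.87), Hoxb5 (0.95), Hoxb8 (0.98), Lbx1 (1.08) and Hoxb6 (1.23), all transcription factors of hindbrain and spinal cord development.

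**Figure D3:**
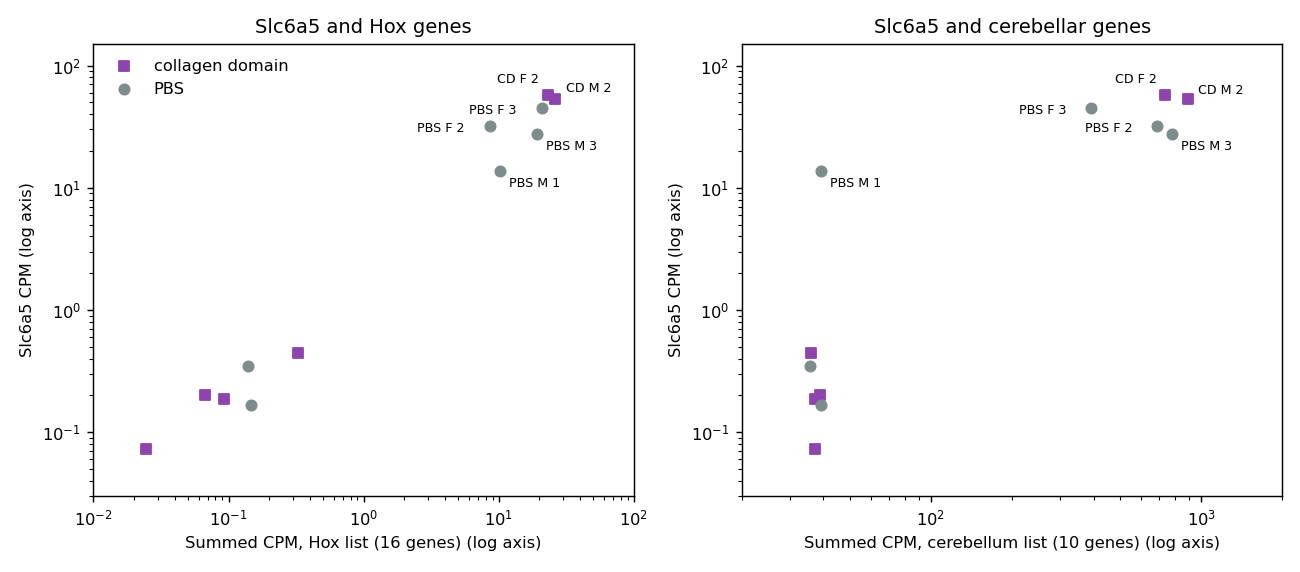
Slc6a5 CPM in each of 12 libraries against the summed CPM of 16 Hox genes (left) and of 10 cerebellar genes (right), all axes log; purple squares are collagen domain, grey circles PBS, and the 6 libraries with Hox reads are named (CD, collagen domain; F, female; M, male). PBS male 1 has Slc6a5 at 13.8 CPM with the cerebellar list at 39.1 CPM.

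The upstream bases of Slc6a5 are shown because it is the member that divides the libraries (GRCm38.p6, plus strand, ending 154 bases before the RefSeq start, with an annotated exon from the next base on).
Slc6a5, chr7:49910049-49910145: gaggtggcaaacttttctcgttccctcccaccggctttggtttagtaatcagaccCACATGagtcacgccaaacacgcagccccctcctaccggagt
The capitals mark an E-box, and the other motifs searched were not in the 250 bases before the start. Its GC content over 250 bases was 50.4%.

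By label the Slc6a5 groups overlapped. It averaged 18.5 ± 28.4 CPM with collagen domain and 19.7 ± 18.0 CPM with PBS (SD, n = 6 each), with edgeR putting the log2 difference at -0.01 (SE 1.62, adjusted p = 1). Leaving out collagen domain male 2 moved this to -1.91, and leaving out PBS female 3 to 0.33. Within a sex 1 library decided the value: in females it was -0.40 (SE 2.39, adjusted p = 1) with all libraries and -6.33 without collagen domain female 2, and in males 0.38 (SE 2.41, adjusted p = 1) and -6.60 without collagen domain male 2. The ratio of Slc6a5 to Slc32a1 in CPM per kilobase was 0.0699 to 0.237 in the 6 libraries with Hox reads and 0.000348 to 0.00244 in the 6 without.

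Slc6a9 (ENSMUSG00000028542, chromosome 4), GlyT1, clears glycine from synapses and sets glycine levels at NMDA receptors. The collagen domain females had 20.8, 33.6 and 23.2 CPM, against 15.7, 31.0 and 31.1 CPM in the PBS females. The collagen domain males had 24.9, 34.8 and 20.6 CPM, against 23.1, 23.7 and 27.2 CPM in the PBS males. The 5 libraries with a cerebellar sum of 392 CPM or more were the 5 highest, PBS male 1 lay among the 6 without Hox reads, and PBS female 1 was lowest. Of 2 glial lists, the 8 astrocyte genes summed to 1636 to 2362 CPM in the 6 libraries with Hox reads and to 1443 to 1591 CPM in the 6 without. The 8 oligodendrocyte genes summed to 5796 to 7200 CPM in the 6 with Hox reads and to 5088 to 5541 CPM in the 6 without. Neither list overlapped between the sets, and their part in the Slc6a9 values was not tested. Reads of Slc6a9 are uncertain in part, since B4galt2 and Ccdc24 on the opposite strand share 46 and 1429 of its exon bases, with Ccdc24 counted at a mean of 0.148 CPM and B4galt2 at 55.4 CPM.

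The cholinergic pair is made up of the choline transporter, which feeds acetylcholine synthesis, and the vesicular transporter, which stores the product. Slc5a7 (ENSMUSG00000023945, chromosome 17) had 8.17, 16.4 and 9.90 CPM in the collagen domain females, against 9.24, 12.5 and 13.5 CPM in the PBS females. In males it had 8.87, 16.6 and 12.6 CPM with collagen domain, against 13.3, 10.7 and 15.6 CPM with PBS. The means were 14.6 ± 1.76 CPM in the 6 libraries with Hox reads and 9.91 ± 1.58 CPM in the 6 without, and the sets touched only through collagen domain male 3, at 12.6 CPM, above PBS female 2, at 12.5 CPM.

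Slc18a3 (ENSMUSG00000100241, chromosome 14) lies within the span of Chat, the gene of the acetylcholine-making enzyme, and shares no exon base with it in the annotation used. It had 1.09, 3.32 and 1.60 CPM in the collagen domain females, against 1.17, 2.33 and 3.35 CPM in the PBS females. In males it had 1.39, 3.30 and 1.76 CPM with collagen domain, against 2.50, 1.91 and 2.57 CPM with PBS. Like Slc6a5, it was higher in each of the 6 libraries with Hox reads (2.33 to 3.35 CPM) than in any of the 6 without (1.09 to 1.91 CPM), on 47 to 176 reads a library. Of all 19145 genes tested, 2.26% lay higher without overlap in these 6 libraries and 1.03% lower, with no test, and 2 of the 8 members lay higher and 0 lower.

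Other cholinergic genes differed in which libraries they were high. Chat ranged from 4.37 to 5.89 CPM in the 6 libraries with Hox reads and from 3.61 to 5.14 CPM in the 6 without. Prph, a filament gene of motor and peripheral neurons, stood at 3.74 to 6.84 CPM against 1.23 to 2.12 CPM, and Colq, the collagen tail of acetylcholinesterase, at 0.894 to 1.68 CPM against 0.303 to 0.587 CPM. Isl1, a transcription factor of striatal and basal forebrain cholinergic as well as other neurons, went the other way, at 3.02 to 4.02 CPM in the 6 with Hox reads and 4.05 to 6.85 CPM in the 6 without. Lhx8, a factor of forebrain cholinergic neurons, overlapped, at 1.61 to 2.07 and 1.95 to 3.74 CPM. Of the 16 genes of this list 3 were higher without overlap and 1 lower. The ratio of Slc18a3 to Slc5a7 in CPM per kilobase was 0.384 to 0.582 in the 6 with Hox reads and 0.297 to 0.419 in the 6 without.

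**Figure D4:**
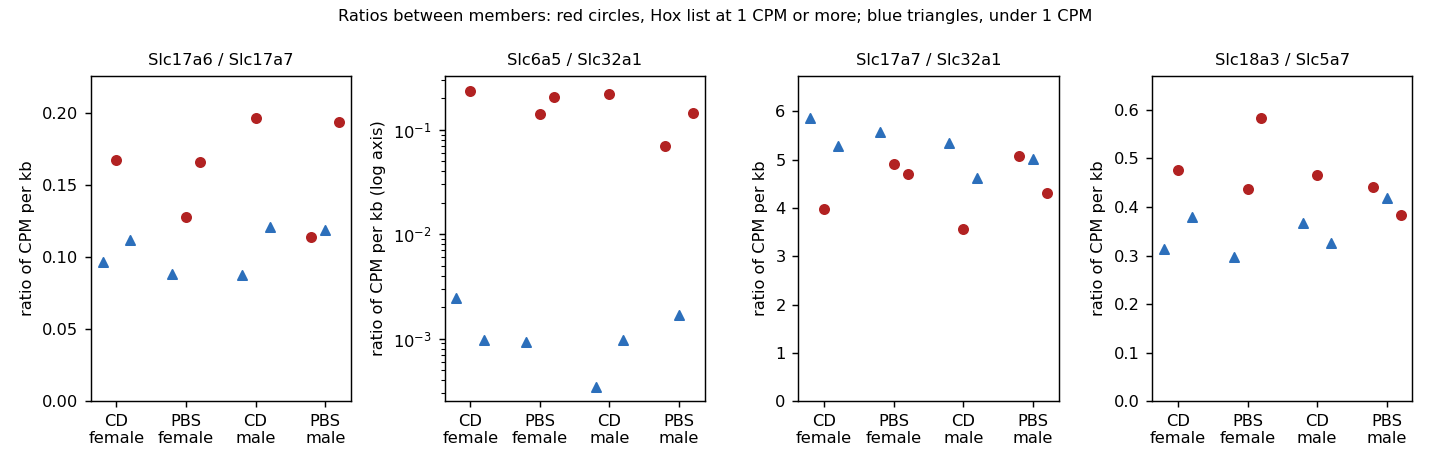
Ratios between member genes in CPM per kilobase of exon for each library by labelled group (the ratio of Slc6a5 to Slc32a1 on a log axis); red circles are the 6 libraries with Hox reads. The red and blue sets do not overlap for Slc6a5 over Slc32a1, at 0.0699 to 0.237 and 0.000348 to 0.00244, and overlap in the other 3 panels.

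Treatment was tested across all genes with edgeR's quasi-likelihood test on the 12 libraries, with sex as a term. It called 0 of the 8 members and 0 of 19145 genes (0%) at an adjusted p under 0.05, while 1 member, Slc17a8, and 354 genes had an unadjusted p under 0.05, and DESeq2 and limma-voom also called 0. Besides Slc17a8 and Slc6a5, log2 fold changes of collagen domain over PBS were -0.14 (SE 0.313) for Slc18a3, -0.07 (SE 0.182) for Slc17a6, -0.04 (SE 0.191) for Slc5a7, -0.00 for Slc17a7 (SE 0.0771), and 0.06 for both Slc32a1 (SE 0.0849) and Slc6a9 (SE 0.187), each at adjusted p = 1. The members' median was -0.01 with 3 of 8 above 0, against 0.00 with 50.1% above 0 over all genes tested. An SE of 0.0771 for Slc17a7 and of 1.62 for Slc6a5 shows how far the precision of this contrast differed between members.

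Some members changed sign, and others did not, in fits that took the tissue difference into account. A fit with the mean of the cerebellar and Hox genes as a covariate gave 0.05 (SE 0.0832) for Slc17a6, 0.06 (SE 0.0882) for Slc5a7 and 0.000714 (SE 0.174) for Slc18a3, all 3 below 0 without it, at an edgeR adjusted p from 0.852 to 0.999. Slc6a9 kept its sign at 0.18 (SE 0.101), and so did Slc6a5 at -0.89 (SE 0.53), both at an adjusted p = 0.795. Within the 6 libraries with Hox reads, 2 of collagen domain and 4 of PBS, Slc6a5 stood at 0.998 (SE 0.335), Slc6a9 at 0.30 (SE 0.111), Slc5a7 at 0.28 (SE 0.103) and Slc32a1 at 0.23 (SE 0.075), all at an edgeR adjusted p = 0.643. The direction of Slc6a5 thus differed between this subset and the covariate fit, and limma-voom on all 12 libraries gave -2.06 (SE 2.19, adjusted p = 0.999). In this subset 4 of 8 members and 1494 of 19665 genes had an unadjusted p under 0.05. The 2 collagen domain libraries there also had the highest Hox sums, 23.0 and 26.2 CPM, against 8.57 to 20.8 CPM in the 4 PBS libraries, and the part of this in the fold changes was not tested. Within the 6 without Hox reads, 4 of collagen domain and 2 of PBS, 0 of 8 members and 579 of 19465 genes had an unadjusted p under 0.05, with Slc6a9 at 0.20 (SE 0.149) and Slc32a1 at 0.02 (SE 0.0625).

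**Figure D5:**
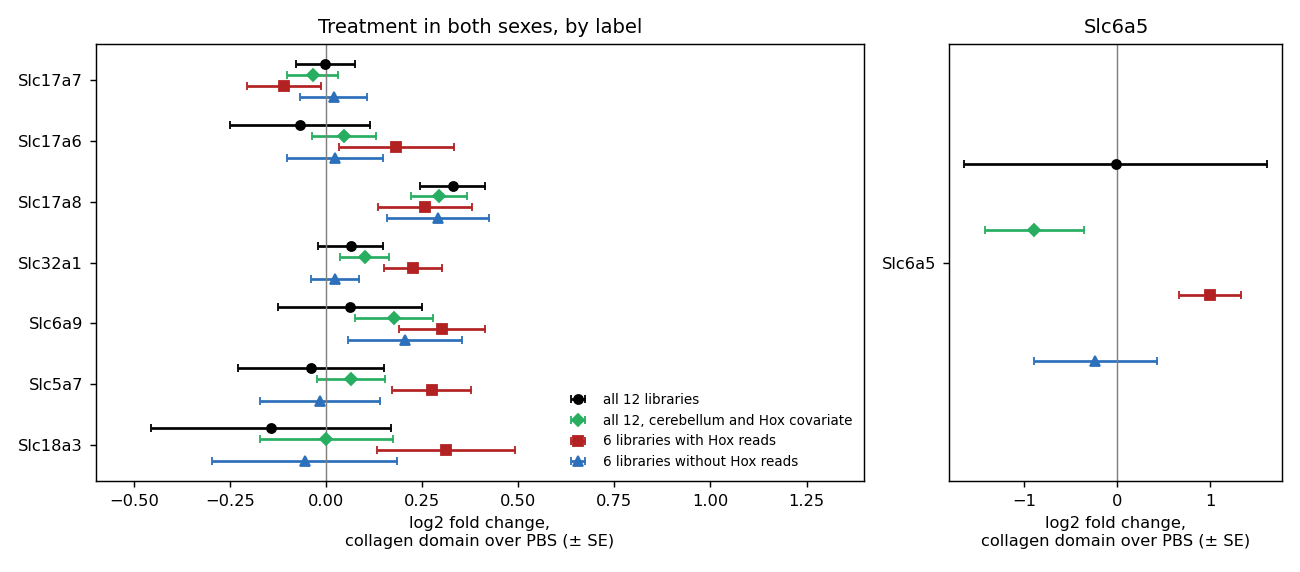
Log2 fold changes of collagen domain over PBS, as labelled, with SE bars from edgeR for each member: all 12 libraries (black), with a covariate of cerebellar and Hox genes (green), and within the 6 libraries with (red) and the 6 without Hox reads (blue); Slc6a5 has its own axis. Slc17a8 lies between 0.26 and 0.33 in all 4 fits, and the bars of Slc6a5 shrink from 1.62 to 0.53 or less in the subset with Hox reads and with the covariate.

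Within females and within males edgeR called 0 of 8 members and 0 of 19145 genes (0%), and 280 and 325 genes had an unadjusted p under 0.05. Slc17a8 in females was the member with such a p (unadjusted p = 0.00613 by the edgeR fit). The interaction called 0 of 8 and 0 genes (0%), with 263 genes at an unadjusted p under 0.05, and DESeq2 called 1 gene, not a member. Members' interaction values ran from -0.16 for Slc17a8 to 0.17 (SE 0.171) for Slc32a1, and 0.78 (SE 3.4) for Slc6a5. Male against female also gave 0 of 8 members and 0 genes (0%), with 377 genes at an unadjusted p under 0.05 and 8 genes called by DESeq2, none a member. Slc17a7 averaged 724 ± 84.5 CPM in males and 769 ± 37.8 CPM in females (SD, n = 6 each), or -0.08 on the log2 scale (SE 0.0771, edgeR adjusted p = 1), and Slc5a7 12.9 ± 2.91 CPM in males and 11.6 ± 3.07 CPM in females, at 0.16 (SE 0.191, adjusted p = 1). Sex labels went against the reads in 4 libraries, which bears on each of these 4 comparisons.

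The wider pathways around these transporters gave no call by treatment. As 0 of all 19145 genes tested passed (0%), the counts of 0 below follow from that and say nothing particular to these pathways. Of the genes for glutamate uptake and synthesis 0 of 13 tested passed, with a median log2 fold change of 0.02. Slc38a5, a glutamine transporter, stood at 0.61 (SE 0.38), with 3.49 ± 3.02 CPM with collagen domain and 2.06 ± 0.577 CPM with PBS, and Slc1a1, a neuronal glutamate transporter, at -0.11 (SE 0.0731). Of the genes for GABA synthesis, uptake and breakdown 0 of 9 passed, with a median of 0.01 and Slc6a11, the GABA transporter GAT-3 of astrocytes, at 0.09 (SE 0.133). Of the glycine genes 0 of 12 passed, with a median of -0.03. Gcsh, a part of the glycine cleavage system, had 36.0 ± 2.77 CPM with collagen domain and 42.3 ± 5.44 CPM with PBS, at -0.22 (SE 0.0833, edgeR unadjusted p = 0.02).

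Acetylcholine genes had a median of 0.06 with 0 of 14 passing. Among them Nkx2-1, a factor of ventral forebrain and hypothalamus, averaged 1.84 ± 0.508 CPM with collagen domain and 1.20 ± 0.406 CPM with PBS, at 0.62 (SE 0.241, edgeR unadjusted p = 0.0244), and Bche, butyrylcholinesterase, 6.23 ± 0.915 and 7.52 ± 0.759 CPM, at -0.27 (SE 0.108, unadjusted p = 0.0296). Of the vesicular proton pump, on which every vesicular member depends, 0 of 15 subunits passed, with a median of -0.06. Of its subunits 1 of 15 was above 0, against 50.1% of all genes tested, and Atp6v1a, a catalytic subunit, was at -0.08 (SE 0.0467). The labels overlapped in the summed level of the 15 subunits. It was 4595 to 5067 CPM with collagen domain and 4765 to 5466 CPM with PBS. Of the other vesicular and monoamine transporters 0 of 11 passed, with a median of -0.01.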

How the data were processed

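Poly(A) RNA of 12 mouse forebrain libraries was sequenced as pairs of reads from a TruSeq version 2 kit, which does not keep strand, per the labels' protocols. What the authors deposited is 1 table of raw counts, whole numbers for each Ensembl ID. The tools STAR and DESeq2 and the build GRCm39 appear, per the submitters' processing notes, without role or version; counter, strand setting and annotation release are not given in the sources used here. Columns were assigned by the library names in the labels. Symbols were found for 42462 of 43629 IDs in GENCODE M21 (GRCm38), which also gave exon lengths, so no coordinates of the counts are given; promoter windows are RefSeq's (GRCm38.p6) and hold all 8 members.

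The test was edgeR 4.0.16 in R 4.3.3 (filterByExpr on the 4 groups, 19145 genes kept; TMM; robust estimateDisp and glmQLFit; Benjamini-Hochberg over all genes, threshold 0.05). A fit with sex and treatment as terms gave treatment in both sexes and the sex comparison; the others came from a fit of the 4 groups. SEs are the fold change over the root of F. Alternatives were DESeq2 1.42.0, limma-voom (limma 3.58.1), other scaling and filters, a replicate block, left-out libraries and a tissue covariate; the fits within libraries with or without Hox reads (at least 1 CPM summed) were added after the data were seen. Steps were tested on simulated data. No same-group pair of libraries repeated the other (chi-square per degree of freedom 11.1 to 94.6). Members and lists were chosen with earlier results of these data known. Named genes are the 8 members, up to 4 of smallest p per pathway list, the 5 genes most like a member whose log2 CPM (prior count 2) spans at least 2, and C1qtnf3, Xist and Ddx3y; genes given for the tissue split or beside Slc17a8 (Tph2, Fev, Slc6a4, Gabra6, En2, Fat2, Barhl1, Chat, Prph, Colq, Isl1, Lhx8) were chosen after their values were seen. Figures used Python 3.11.15 and matplotlib 3.10.9.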

Additional observations from a re-analysis of the deposited data

How the results depend on the processing

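No member was called in any comparison under any alternative run. Slc17a8 kept its direction in each, with an adjusted p of 0.643 or above for both sexes. The kept direction is no independent support, since these runs reuse the same 12 libraries, whose labelled groups did not overlap for Slc17a8. Over all genes, leaving out the 4 libraries against their treatment label gave 2 calls for treatment in both sexes, 1 in males and 1 for male against female. Leaving out the 5 against either label gave 2, 1 and 8. In both fits females kept 1 collagen domain library, and no count is given for them. The 4 were chosen by their C1qtnf3 reads, and the 5 also by Xist and Ddx3y reads. Calls of C1qtnf3 or of sex-linked genes were thus favoured by the choice and are no independent evidence. DESeq2 called 3 genes in males, 1 for the interaction and 8 for male against female, and the fit within the 6 libraries without Hox reads called 3 for male against female. Leaving out 1 library gave 0 to 1 calls in males (1 without collagen domain female 3) and 0 to 5 for male against female (5 without PBS male 3).

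Signs turned for members near 0 in both sexes. Without the 4 libraries, log2 fold changes were 0.0225 for Slc17a7, 0.0202 for Slc17a6, 0.75 for Slc6a5, 0.17 for Slc5a7 and 0.18 for Slc18a3; without the 5 they were 0.0144, 0.0654, 1.10, 0.18 and 0.26. With the tissue covariate Slc17a6 was 0.0468, Slc5a7 0.0637 and Slc18a3 0.000714. Within the 6 libraries with Hox reads Slc17a6 was 0.18, Slc6a5 0.998, Slc5a7 0.28 and Slc18a3 0.31, and within the 6 without, Slc17a7 was 0.0193 and Slc17a6 0.0222. Slc6a5 in females was 1.36 without the 4 and 1.36 without the 5. Both fits compared the same female libraries, collagen domain female 2 alone, at 57.1 CPM, against PBS females 1 and 3. The 2 values are therefore not independent, and collagen domain female 2 and PBS female 3 had Hox reads. In males Slc6a5 was -2.34 by limma-voom and -1.58 with the covariate. The cause of these turns was not tested. Leaving out each library in turn gave for both sexes -0.0589 to 0.0301 for Slc17a7, -0.19 to 0.0245 for Slc17a6, 0.28 to 0.37 for Slc17a8, 0.01 to 0.11 for Slc32a1, -1.91 to 0.33 for Slc6a5, -0.0500 to 0.14 for Slc6a9, -0.19 to 0.0518 for Slc5a7 and -0.39 to 0.0275 for Slc18a3. Within sexes Slc17a8 ranged from 0.33 to 0.46 in females and from 0.16 to 0.31 in males, and Slc6a5 from -6.33 to 0.27 and from -6.60 to 1.35.

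Correlations between libraries did not settle whether replicate numbers pair the samples. The 18 same-number pairs had r from -0.384 to 0.572, and 6 of 12 libraries correlated best with their own number. A replicate block called 0 genes in all 5 comparisons and gave Slc17a8 0.32 and Slc6a5 -2.92 in both sexes, and Slc6a5 -3.56 in males.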

Other observations

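Among transporters outside the members, the plasma membrane transporters of noradrenaline and serotonin neurons followed the Hox genes. Slc6a2, the noradrenaline transporter, ranged from 0.838 to 2.66 CPM in the 6 libraries with Hox reads and from 0 to 0.0467 CPM in the 6 without, and Slc6a4, the serotonin transporter, from 0.666 to 6.24 and from 0.0233 to 0.178 CPM. Slc6a3, the dopamine transporter of midbrain neurons, overlapped, at 4.50 to 15.4 and 1.16 to 10.2 CPM. Slc18a2, a vesicular monoamine transporter, overlapped as well, at 9.82 to 17.2 and 5.74 to 13.1 CPM. Of the 11 other vesicular and monoamine transporters listed, 3 were higher without overlap and 0 lower, against 2.26% and 1.03% of all genes tested. Glra1, the adult glycine receptor subunit of brainstem and spinal cord, ranged from 4.67 to 11.3 CPM with Hox reads and from 0.629 to 2.12 CPM without, while Glra2 ranged from 15.8 to 20.5 and from 19.3 to 22.2 CPM. Slc1a6, the glutamate transporter of Purkinje cells, ranged from 8.34 to 28.2 CPM with Hox reads and from 7.59 to 8.13 CPM without. The GABA-making enzymes overlapped between the sets, with Gad1 at 459 to 555 and 514 to 568 CPM and Gad2 at 271 to 296 and 279 to 317 CPM. These genes were chosen after their values were seen, and no test was made.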
